A study of Mus musculus with 16 samples.

Results

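The 10 genes described here are the core circadian clock genes Arntl, Clock, Per1, Per2, Per3, Cry1, Cry2, Nr1d1, Nr1d2 and the clock output gene Dbp. They were chosen by symbol, and all 10 were found among the 15350 genes listed in every library. The tissue, from C57BL/6J mice, was interscapular brown fat (brown adipose tissue), the depot that makes heat through the mitochondrial protein UCP1. Its mRNA was sequenced in 16 libraries, 4 in each of 4 groups. The KO isoproterenol group came from Ucp1-knockout (KO) mice given isoproterenol, which acts on beta-adrenergic receptors, by Alzet minipump at 60 mg per kg per day for 3 days. The WT isoproterenol group had the same infusion in wild-type (WT) mice. The KO saline and WT saline groups are labelled as treated with saline. The protocol text on their labels describes the isoproterenol infusion, so a saline pump for the same 3 days is inferred here. The labels do not give the deleted segment of Ucp1, the age and sex of the mice, the lighting schedule or the hour at which tissue was taken. Whether each library stands for its own mouse is not said either, so p-values measure library-to-library spread that may be technical.

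The circadian clock is a loop of transcription in which the proteins BMAL1 (gene Arntl) and CLOCK bind E-box elements as a pair and switch on the Per, Cry, Nr1d1, Nr1d2 and Dbp genes. PER and CRY proteins then repress that pair, while REV-ERBα and REV-ERBβ (Nr1d1 and Nr1d2) repress Arntl at elements that the ROR receptors use to activate it. In mouse tissues Arntl mRNA therefore peaks at about the opposite time of day from Nr1d1 and Dbp mRNA. DBP acts with TEF and HLF at D-box elements, where NFIL3 competes as a repressor. In mouse brown fat REV-ERBα is also known as a repressor of Ucp1.

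Expression is given as counts per 1000000 reads (CPM) from the deposited log2 CPM values. Depth was 9004515 to 20986735 reads over the listed genes, so 1 read was worth 0.0476 to 0.115 CPM. The fewest reads of any clock gene in any library were 31, for Arntl in WT saline replicate 4. Ucp1, the targeted gene, had 19.0, 268, 848 and 2129 CPM in the KO isoproterenol libraries, against 8905 to 18458 CPM in the WT isoproterenol libraries. It had 409.8 to 1156 CPM in KO saline and 2298 to 3449 CPM in WT saline, so every KO library lay below every WT library of its treatment. KO isoproterenol replicate 1 stood apart, with correlations of 0.852 to 0.925 with its own group over all genes. In the WT isoproterenol, KO saline and WT saline groups no such correlation was below 0.949. The counts of clock genes called are therefore also given without that library, a choice made after seeing the data. So is each clock gene whose call changed, or whose called value moved by over 1.5 times, without it. The same holds for wider clock genes that lost a call or whose called value moved by as much. Wider clock genes that gained a call without it are not named. In whole tissue, fewer cells of a type and less RNA per cell cannot be told apart.

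Promoter windows that held a clock element are shown for Arntl, Cry1 and Per3, which moved with isoproterenol in KO mice, and for Per1, whose calls changed with the libraries and settings used. Each runs from 250 bases before to 50 bases after an annotated start, on the gene's own strand, from RefSeq on build GRCm38.p6, another build than that of the reads. The table held windows for 9 of the 10 genes, 13 windows in all. Capitals mark a match, on either strand, to CACGTG (E-box), TTATGNAA (D-box) or TAGGTCA (the core shared by ROR and REV-ERB receptors). Nfil3 is shown beside Arntl because it held the same core.
Arntl promoter 2, chr7:113207261-113207560, plus strand: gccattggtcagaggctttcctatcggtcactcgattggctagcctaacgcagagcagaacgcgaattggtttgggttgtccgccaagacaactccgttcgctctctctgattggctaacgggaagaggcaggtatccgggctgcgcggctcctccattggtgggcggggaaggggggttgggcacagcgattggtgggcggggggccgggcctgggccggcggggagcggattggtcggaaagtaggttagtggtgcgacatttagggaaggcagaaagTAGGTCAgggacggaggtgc
Nfil3, chr13:52980990-52981289, minus strand: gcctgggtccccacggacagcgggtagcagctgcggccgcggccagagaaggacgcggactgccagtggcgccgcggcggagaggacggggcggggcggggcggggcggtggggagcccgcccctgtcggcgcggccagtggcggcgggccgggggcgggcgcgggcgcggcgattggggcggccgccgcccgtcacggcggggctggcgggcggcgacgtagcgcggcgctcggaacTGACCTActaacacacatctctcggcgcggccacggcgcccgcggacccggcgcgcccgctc
Per3, chr4:151044616-151044915, minus strand: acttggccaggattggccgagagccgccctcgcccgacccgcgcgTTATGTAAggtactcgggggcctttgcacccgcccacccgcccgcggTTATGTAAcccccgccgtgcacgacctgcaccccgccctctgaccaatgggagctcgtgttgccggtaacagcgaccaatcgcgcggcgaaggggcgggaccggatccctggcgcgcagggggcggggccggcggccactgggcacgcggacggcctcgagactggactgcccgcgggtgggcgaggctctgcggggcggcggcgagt
Cry1, chr10:85185005-85185304, minus strand: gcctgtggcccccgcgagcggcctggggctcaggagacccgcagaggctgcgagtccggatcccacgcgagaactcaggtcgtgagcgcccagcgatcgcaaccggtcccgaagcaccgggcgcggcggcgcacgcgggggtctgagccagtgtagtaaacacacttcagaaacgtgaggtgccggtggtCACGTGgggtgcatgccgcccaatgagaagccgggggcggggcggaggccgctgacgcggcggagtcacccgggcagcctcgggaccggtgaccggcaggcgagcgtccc
Per1 promoter 1, chr11:69098699-69098998, plus strand: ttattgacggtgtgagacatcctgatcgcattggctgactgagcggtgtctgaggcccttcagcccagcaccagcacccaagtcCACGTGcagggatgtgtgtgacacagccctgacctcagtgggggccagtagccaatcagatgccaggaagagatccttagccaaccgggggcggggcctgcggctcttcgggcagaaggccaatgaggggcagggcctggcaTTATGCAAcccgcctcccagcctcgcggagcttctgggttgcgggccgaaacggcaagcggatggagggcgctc

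Positions are counted from the annotated start, whose base is 0, with negative numbers before it. The ROR and REV-ERB core lay at bases 30 to 36 in Arntl and at bases -12 to -6 in Nfil3. Per3 held a pair of D-boxes, at -205 to -198 and at -158 to -151. Cry1 held an E-box at -60 to -55, and Per1 held an E-box at -166 to -161 and a D-box at -24 to -17. Over the 9 clock genes with a window, the E-box was found in 2, the D-box in 2, the ROR and REV-ERB core in 1 and the cAMP response element TGACGTCA in 0. Of all 27025 genes in the table, 8.09% had a window with CACGTG, 3.99% with TTATGNAA, 2.97% with TAGGTCA and 2.03% with TGACGTCA. No motif searched lay in the windows of Dbp, Nr1d1, Nr1d2, Clock or Cry2, which says only that these letters are not in those windows. A match is a description of sequence, not a site shown to be bound.

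Isoproterenol moved 6 of the 10 clock genes in KO mice. Arntl and Cry1 rose, while Per3, Nr1d1, Nr1d2 and Dbp fell, by the limma test with an adjusted p under 0.05 over all genes. That comparison called 48.6% of all genes, 23.8% higher and 24.8% lower, so a share of 6 in 10 is near the background. In WT mice 0 of the 10 were called, against 16.6% of all genes (7.60% higher, 8.98% lower); 3 had an unadjusted p under 0.05, and limma with voom weights called 0. With the 8 WT libraries alone, paired by replicate number, 1 clock gene was higher (Arntl) and 3 were lower (Cry2, Nr1d1 and Nr1d2), against 34.5% of all genes (17.3% higher, 17.2% lower). The labels do not give that pairing, and its fit was added after seeing the data. Between genotypes, 0 were called under saline, where 0.0977% of all genes were (0.0717% higher, 0.0261% lower); 0 had an unadjusted p under 0.05, and voom weights gave 0. Under isoproterenol, KO and WT differed at 5 of the 10, with Arntl and Cry1 higher and Per3, Nr1d2 and Dbp lower in KO, against 44.6% of all genes called (21.6% higher, 23.1% lower). The KO response differed from the WT response at Per3 alone among the 10, where it was lower, against 24.7% of all genes (10.9% higher, 13.8% lower).

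The median log2 fold change of the 10 genes was -0.40 with isoproterenol in KO and -0.03 in WT, against -0.00213 and -0.02 over all genes. For KO against WT it was -0.14 under isoproterenol and 0.08 under saline, against 0.02 and -0.00350 over all genes. Scaling by library totals shifted the median of all genes by 0.18 in KO, -0.11 in WT and 0.26 for KO against WT under isoproterenol. With it the calls over all genes were 4493 higher and 2939 lower in KO, where the deposited scaling gave 3647 and 3813. In WT they were 770 higher and 1748 lower, where the deposited scaling gave 1167 and 1379. For KO against WT under isoproterenol they were 5030 higher and 2527 lower, where the deposited scaling gave 3311 and 3542. For the difference of responses, where that median shifted by 0.29, they were 2895 higher and 1477 lower, where the deposited scaling gave 1674 and 2113. No clock gene that was called changed direction with that scaling. Without KO isoproterenol replicate 1 the counts were 3 higher and 4 lower in KO (45.3% of all genes called) and 1 higher and 2 lower in WT (23.7%). For KO against WT under isoproterenol they were then 3 higher and 2 lower (42.4%).

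**Figure D1:**
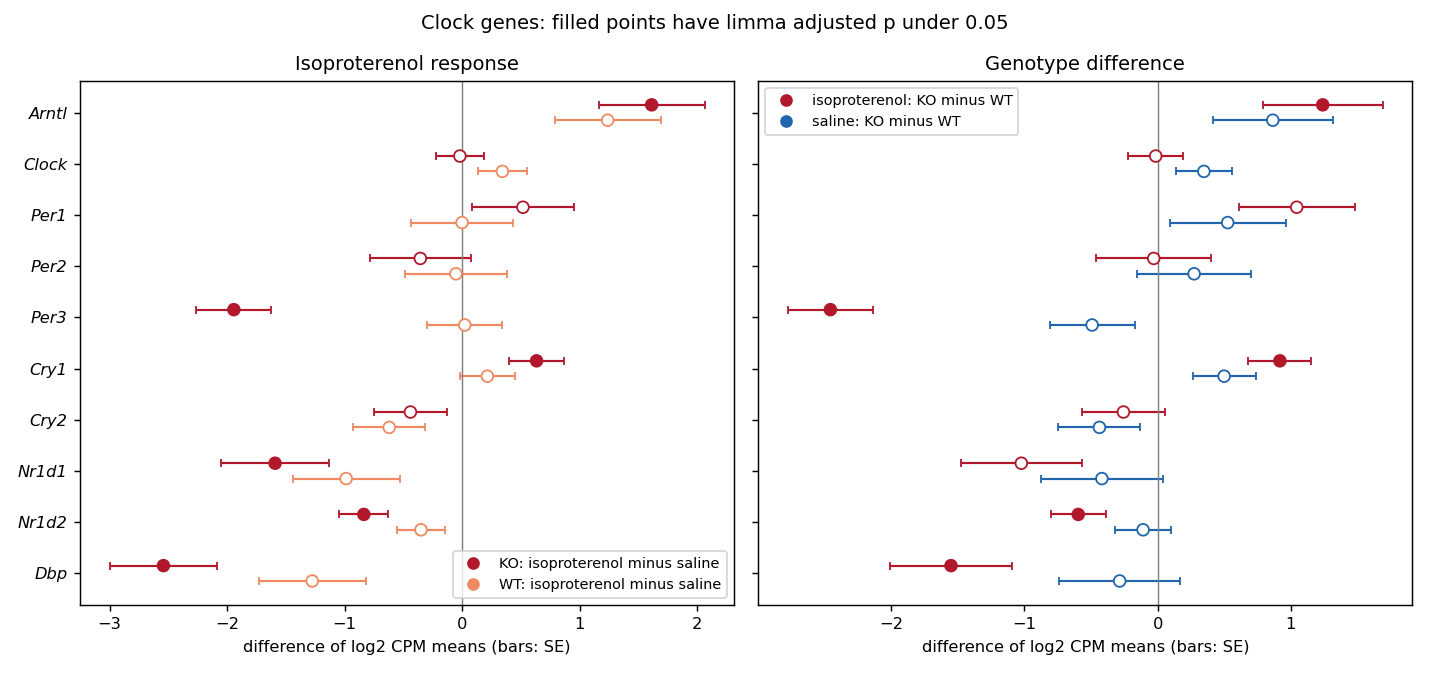
Log2 fold changes of the 10 clock genes (horizontal axis, difference of mean log2 CPM; bars, SE of the limma fit; 4 libraries a group). The left panel gives isoproterenol minus saline in KO and in WT, the right panel KO minus WT under isoproterenol and under saline; filled points were called. The filled points are those of Arntl, Per3, Cry1, Nr1d1, Nr1d2 and Dbp in KO, and those of Arntl, Per3, Cry1, Nr1d2 and Dbp for KO against WT under isoproterenol.

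The KO isoproterenol group enters both the comparison with KO saline and the comparison with WT isoproterenol, so those results share libraries and are set side by side only. The 4 values of each group below are in the order of replicates 1 to 4 of the sample titles, and an order of libraries carries no meaning of its own.

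Arntl, which encodes BMAL1, the positive arm of the loop, was highest in KO mice given isoproterenol. It had 15.2, 42.3, 20.8 and 26.9 CPM in KO isoproterenol, against 16.1, 8.45, 7.66 and 3.96 CPM in KO saline. It had 5.60, 18.9, 8.73 and 12.6 CPM in WT isoproterenol, against 5.42, 6.55, 4.05 and 2.62 CPM in WT saline. In KO mice 3 of the 4 isoproterenol libraries lay above every saline library, and replicate 1 lay inside the saline range. In WT mice likewise 3 of 4 lay above every saline library, and the groups overlapped through replicate 1. Arntl rose in KO (log2 fold change 1.61, SE 0.45, adjusted p = 0.00831), and this call held without each library in turn. The WT change of 1.24 (SE 0.45, adjusted p = 0.0741) did not pass, and it passed with WT libraries alone (adjusted p = 0.0343; 0.0200 with their replicate numbers as a block) and without KO isoproterenol replicate 1 (0.0480) or WT isoproterenol replicate 1 (0.0422). Mean levels were 26.3 ± 11.7 CPM in KO isoproterenol, 11.4 ± 5.71 in WT isoproterenol, 9.05 ± 5.10 in KO saline and 4.66 ± 1.70 in WT saline (SD, n = 4 each), and each neighbouring pair in that order overlapped.

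Between genotypes Arntl was higher in KO under isoproterenol, with a log2 difference of 1.24 (SE 0.45, adjusted p = 0.0356). That call was lost without KO isoproterenol replicate 2 (adjusted p = 0.112) or 4 (0.0576), without WT isoproterenol replicate 1 (0.119) or 3 (0.0836), and with the 8 isoproterenol libraries alone (0.0539). Under saline the KO minus WT difference was 0.86 (SE 0.45, adjusted p = 0.773), and the difference of the KO and WT responses was 0.37 (SE 0.64, adjusted p = 0.698). Neither passed, and the larger change in KO than in WT was therefore not shown to be a different response.

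Clock, which encodes the partner of BMAL1, was called in 0 of the 5 comparisons. It had 69.5, 81.6, 73.2 and 95.0 CPM in KO isoproterenol, against 119.7, 75.1, 81.4 and 57.1 CPM in KO saline. It had 53.7, 85.9, 95.3 and 93.5 CPM in WT isoproterenol, against 63.3, 61.3, 63.1 and 65.2 CPM in WT saline. The WT saline libraries lay close together, whereas the other 3 groups were spread more widely and overlapped one another. The log2 fold change was -0.02 (SE 0.21, adjusted p = 0.945) in KO and 0.34 (SE 0.21, adjusted p = 0.289) in WT.

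**Figure D2:**
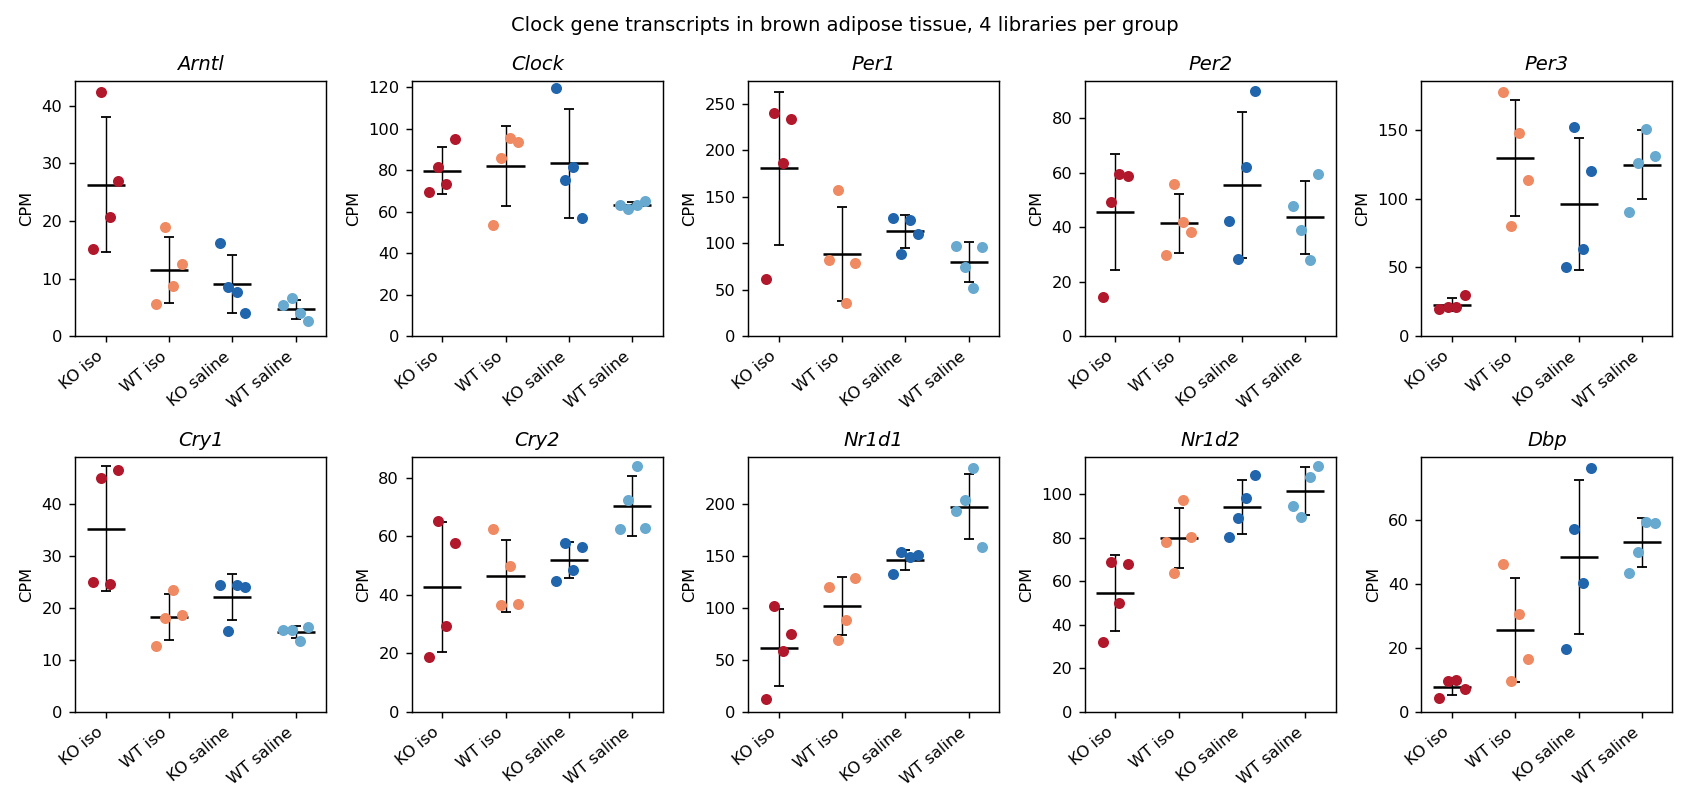
CPM of each of the 10 clock genes (vertical axis) in all 16 libraries, by group from KO isoproterenol to WT saline; points are libraries and bars are group means. Per3 in KO isoproterenol, at 19.6 to 29.8 CPM, lies below every library of the other 3 groups, and Dbp in KO isoproterenol, at 4.35 to 10.1 CPM, lies below every saline library.

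The Period genes encode repressors of the BMAL1 and CLOCK pair, and among them Per3 alone was called. Per3 had 19.6, 21.5, 21.0 and 29.8 CPM in KO isoproterenol, against 50.1, 152, 63.3 and 119.8 CPM in KO saline. It had 178, 80.2, 148 and 114 CPM in WT isoproterenol, against 90.6, 126, 151 and 131 CPM in WT saline. The 4 KO isoproterenol libraries sat together below every library of the other groups, which overlapped one another. Per3 fell in KO (log2 fold change -1.94, SE 0.32, adjusted p = 2.01e-04), and was lower in KO than in WT under isoproterenol (log2 difference -2.46, SE 0.32, adjusted p = 5.28e-05). In WT the fold change was 0.02 (SE 0.32, adjusted p = 0.976). The KO response lay below the WT response (log2 difference -1.96, SE 0.45, adjusted p = 0.00783), and the calls of the KO response, the genotype difference and the difference of responses held without each library in turn. The Per3 promoter window printed above is the one with a pair of D-boxes.

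Mean Per3 was 23.0 ± 4.58 CPM in KO isoproterenol, 129.9 ± 42.1 in WT isoproterenol, 96.3 ± 47.9 in KO saline and 125 ± 25.1 in WT saline (SD, n = 4 each). In the order of these levels WT isoproterenol, WT saline and KO saline overlapped, and KO isoproterenol lay apart below them. Leaving out KO isoproterenol replicate 1 changed none of these calls of Per3.

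Per1, an immediate-early clock gene that many hormones and cAMP induce, had 61.9, 239.9, 186 and 234 CPM in KO isoproterenol, against 128, 88.1, 125 and 110.2 CPM in KO saline. It had 82.0, 157, 35.3 and 78.7 CPM in WT isoproterenol, against 96.8, 74.4, 52.0 and 96.2 CPM in WT saline. In KO isoproterenol replicate 1 was below every KO saline library, whereas replicates 2, 3 and 4 were above every one. The log2 fold change in KO was 0.52 (SE 0.44, adjusted p = 0.346) and did not pass; without replicate 1 it was 0.97 (adjusted p = 0.0368). The KO minus WT difference under isoproterenol was 1.04 (SE 0.44, adjusted p = 0.0625); without that replicate it was 1.5 (adjusted p = 0.00364). It also passed without WT isoproterenol replicate 2 (0.0179) with library totals as scaling (0.0239) and with a block for the replicate numbers of the file headers (0.0451). In WT the fold change was -0.00218 (SE 0.44, adjusted p = 0.999).

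Per2, a Period gene needed for stable rhythms in mice, was called in 0 of the 5 comparisons. It had 14.3, 49.3, 59.5 and 58.8 CPM in KO isoproterenol, against 42.2, 28.3, 62.1 and 89.9 CPM in KO saline. It had 29.96, 55.9, 41.8 and 38.3 CPM in WT isoproterenol, against 47.8, 39.0, 28.1 and 59.6 CPM in WT saline. All 4 groups overlapped, and KO isoproterenol replicate 1 was the lowest of the 16 libraries. The log2 fold change was -0.36 (SE 0.43, adjusted p = 0.519) in KO and -0.05 (SE 0.43, adjusted p = 0.952) in WT. The direction of the KO change turned to 0.13 without KO isoproterenol replicate 1.

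The cryptochromes repress the BMAL1 and CLOCK pair together with the PER proteins, and here Cry1 rose in KO while Cry2 was not called. Cry1 had 25.0, 44.9, 24.6 and 46.5 CPM in KO isoproterenol, against 24.5, 15.6, 24.3 and 24.1 CPM in KO saline. It had 12.7, 18.1, 23.5 and 18.7 CPM in WT isoproterenol, against 15.8, 15.8, 13.7 and 16.4 CPM in WT saline. KO isoproterenol lay above all libraries of the other 3 groups, though its replicates 1 and 3 did so by a narrow margin. The log2 fold change was 0.63 (SE 0.24, adjusted p = 0.0374) in KO and 0.21 (SE 0.24, adjusted p = 0.589) in WT. Under isoproterenol Cry1 was higher in KO than in WT (log2 difference 0.92, SE 0.24, adjusted p = 0.00562), which held without each library in turn. Cry1 was the 1 clock gene higher and Per3 the 1 lower without overlap between KO and WT isoproterenol, where 17.2% of all genes were higher and 18.3% lower in that way. The KO call was lost without KO isoproterenol replicate 2 (adjusted p = 0.115) or 4 (0.104), without KO saline replicate 2 (0.125) and with the 8 KO libraries alone (0.101).

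Cry2 had 18.8, 65.1, 29.4 and 57.6 CPM in KO isoproterenol, against 44.7, 57.6, 48.5 and 56.3 CPM in KO saline. It had 62.4, 36.6, 49.8 and 37.0 CPM in WT isoproterenol, against 62.3, 72.2, 83.9 and 62.6 CPM in WT saline. Both KO groups overlapped, and KO saline lay below WT saline without overlap. The KO minus WT difference under saline was -0.44 (SE 0.31, adjusted p = 0.864) and did not pass. Of the 10 clock genes 2, Cry2 and Nr1d1, were lower without overlap in KO saline than in WT saline and 0 were higher. Among all genes 3.44% were lower and 3.75% higher in that way, 7.19% together. The isoproterenol log2 fold change was -0.44 (SE 0.31, adjusted p = 0.253) in KO and -0.62 (SE 0.31, adjusted p = 0.189) in WT, and the WT change passed with WT libraries alone (adjusted p = 0.0200; 0.0134 with their replicate numbers as a block).

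The REV-ERB genes, which encode haem-binding repressors of Arntl, both fell with isoproterenol in KO. Nr1d1 had 12.4, 102, 58.7 and 75.0 CPM in KO isoproterenol, against 132, 154, 149.5 and 151 CPM in KO saline. It had 119.9, 69.0, 88.3 and 129 CPM in WT isoproterenol, against 193, 204, 235 and 159 CPM in WT saline. In each genotype every isoproterenol library lay below every saline library, and KO saline lay below WT saline without overlap. Nr1d1 fell in KO (log2 fold change -1.59, SE 0.46, adjusted p = 0.00960). Without KO isoproterenol replicate 1, which was its lowest library, the change was -0.94 (adjusted p = 0.00255), and with the 8 KO libraries alone the call was lost (0.0596). The WT change of -0.99 (SE 0.46, adjusted p = 0.157) did not pass; it passed with WT libraries alone (adjusted p = 0.00369; 0.0107 with their replicate numbers as a block) and without KO isoproterenol replicate 1 (0.00254).

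Nr1d1 averaged 61.9 ± 37.5 CPM in KO isoproterenol, 102 ± 27.9 in WT isoproterenol, 147 ± 9.54 in KO saline and 197 ± 31.3 in WT saline (SD, n = 4 each). In that order only the lowest pair, KO and WT isoproterenol, overlapped. The KO minus WT difference was -1.02 (SE 0.46, adjusted p = 0.0802) under isoproterenol and -0.42 (SE 0.46, adjusted p = 0.944) under saline. Neither passed, and without KO isoproterenol replicate 2 or 4 the difference under isoproterenol did (adjusted p = 0.0243 and 0.0446). The difference of the responses was -0.60 (SE 0.65, adjusted p = 0.521). Without KO isoproterenol replicate 1 the difference under isoproterenol was -0.37 (adjusted p = 0.187) and the difference of the responses 0.0516 (0.916).

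Nr1d2 had 32.2, 69.0, 49.9 and 67.7 CPM in KO isoproterenol, against 80.4, 89.1, 98.4 and 109 CPM in KO saline. It had 78.2, 63.9, 97.3 and 80.6 CPM in WT isoproterenol, against 94.7, 89.7, 108 and 113 CPM in WT saline. In KO the groups did not overlap, and replicate 1 was again the lowest; in WT they overlapped. Nr1d2 fell in KO (log2 fold change -0.84, SE 0.21, adjusted p = 0.00389), without exception when libraries were left out in turn, and its WT change was -0.35 (SE 0.21, adjusted p = 0.273), which passed with WT libraries alone and their replicate numbers as a block (adjusted p = 0.0193). Under isoproterenol it was lower in KO than in WT (log2 difference -0.60, SE 0.21, adjusted p = 0.0292). That difference no longer passed without KO isoproterenol replicate 1 (-0.36, adjusted p = 0.0810) or 3 (0.0611), without WT isoproterenol replicate 1 (0.0532), 3 (0.0919) or 4 (0.0605), with the 8 isoproterenol libraries alone (0.109), or with library totals as scaling (-0.34, adjusted p = 0.170).

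Dbp, the D-box activator that BMAL1 and CLOCK switch on directly, had the largest log2 fold change of the 10 genes in KO. It had 4.35, 9.61, 10.1 and 7.09 CPM in KO isoproterenol, against 19.8, 57.1, 40.2 and 76.1 CPM in KO saline. It had 46.2, 9.50, 30.5 and 16.5 CPM in WT isoproterenol, against 43.5, 49.98, 59.2 and 59.1 CPM in WT saline. KO isoproterenol lay below every saline library, and WT isoproterenol replicate 2 alone of the WT isoproterenol libraries lay inside the KO isoproterenol range. Dbp fell in KO (log2 fold change -2.54, SE 0.46, adjusted p = 4.00e-04) and was lower in KO than in WT under isoproterenol (log2 difference -1.55, SE 0.46, adjusted p = 0.0123), and both calls held without each library in turn. The WT change of -1.28 (SE 0.46, adjusted p = 0.0686) did not pass. It passed with library totals as scaling (adjusted p = 0.0457) and without KO isoproterenol replicate 1 (0.0438), WT isoproterenol replicate 1 (0.0272) or KO saline replicate 1 (0.0473). The difference of the responses was -1.27 (SE 0.65, adjusted p = 0.161) and did not pass.

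Dbp averaged 7.79 ± 2.64 CPM in KO isoproterenol, 25.7 ± 16.3 in WT isoproterenol, 48.3 ± 24.01 in KO saline and 52.9 ± 7.63 in WT saline (SD, n = 4 each). Each neighbouring pair in that order overlapped, and the middle groups, WT isoproterenol and KO saline, were the most spread. In KO mice Per3, Nr1d1, Nr1d2 and Dbp were lower in every KO isoproterenol library than in any KO saline library, and Cry1 was higher in every one. Among all genes 19.3% were lower and 18.1% higher in that way.

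Arntl and Dbp stood in opposite order in most groups, library by library. In WT isoproterenol the library with the most Arntl (replicate 2) had the least Dbp, and the order of the 4 libraries by Dbp was the exact reverse of that by Arntl. In KO saline the libraries with the most and the least Arntl, replicates 1 and 4, had the least and the most Dbp. In WT saline replicates 1 and 2 had more Arntl and less Dbp than replicates 3 and 4. In KO isoproterenol this did not hold, since replicate 1 was lowest for both genes. The log2 CPM difference, Arntl minus Dbp, ran from 1.04 to 2.14 in KO isoproterenol libraries and from -3.05 to 0.99 in those of WT isoproterenol. It ran from -4.26 to -0.30 in KO saline libraries and from -4.50 to -2.93 in those of WT saline. KO isoproterenol alone lay apart from the other 3 groups on this difference. Since CPM is not divided by transcript length, the difference compares libraries and not the levels of both genes. Arntl minus Nr1d1 ran from -1.5 to 0.29 in KO isoproterenol libraries, against -4.42 to -1.87 in those of WT isoproterenol. It was -5.25 to -3.04 in KO saline libraries, against -5.92 to -4.96 in those of WT saline. Here too KO isoproterenol did not overlap with any other group.

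**Figure D3:**
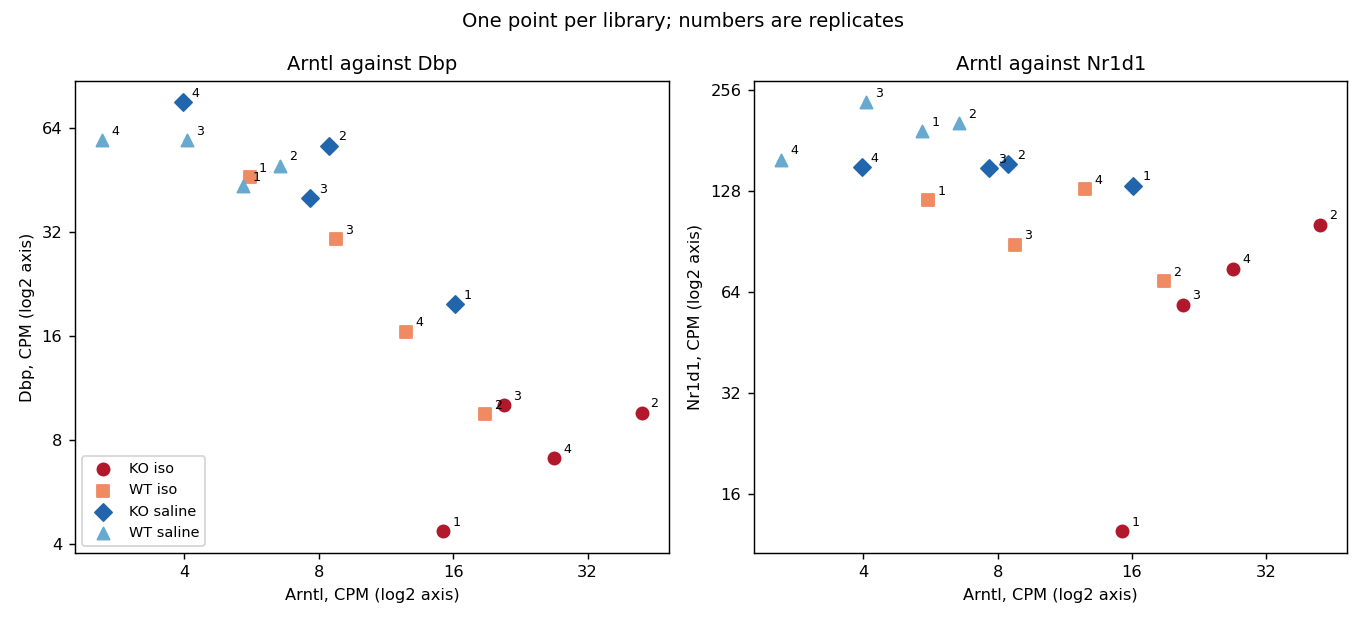
CPM of Dbp (left) and of Nr1d1 (right) on the vertical axis against CPM of Arntl on the horizontal axis, all on log2 axes; each point is 1 of the 16 libraries, numbered by replicate. KO isoproterenol libraries lie at high Arntl and low Dbp, and WT saline libraries at low Arntl and high Nr1d1.

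To set the groups aside, the log2 CPM of each library was taken as its deviation from its group mean, and Arntl was correlated with each of the 9 other genes over the 16 libraries. Against Dbp, Pearson's r was -0.62 (exact permutation within groups, two-sided p = 0.0399, adjusted over 9 genes 0.179) and Spearman's rho was -0.65 (permutation p = 0.0311, adjusted 0.184). Without the 2 libraries farthest from the median of Arntl, KO saline replicates 1 and 4, r was -0.43. Within the 8 isoproterenol libraries r was -0.45 and within the 8 saline libraries -0.84. Without KO isoproterenol replicate 1 it was -0.83 (exact permutation, adjusted p = 0.0166). Against Clock, r was 0.70 (exact permutation p = 0.0163, adjusted 0.147) and rho was 0.58 (permutation p = 0.0454, adjusted 0.184). Without the same 2 libraries it was 0.50. Against Nr1d1, r was 0.28 (exact permutation p = 0.339, adjusted 0.508) and rho was 0.10 (permutation p = 0.729, adjusted 0.823). None of the 9 relations passed with all libraries. Arntl and Nr1d1 thus stood opposite in their group means, at the highest and lowest levels in KO isoproterenol, whereas their deviations from the group means gave an r of 0.28, and of -0.0431 without KO isoproterenol replicate 1.

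By the same measure, over 12440 genes with a mean log2 CPM of at least 1, the 6 genes most like Arntl were Rnf19a (r = 0.87), D930016D06Rik (0.85), Wbp11 (0.84), Rlf (0.82), Cdkn1a (0.81) and AC098880.2 (0.81). The 6 most like Dbp were 2900052L18Rik (0.85), Chrd (0.81), Dixdc1 (0.80), Shroom1 (0.79), Adra1d (0.79) and Per3 (0.79). All points share the 16 libraries and their scaling. Per3 was the only clock gene among these 12, and Clock stood at rank 33 for Arntl.

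The wider clock list held 31 listed genes, the partners, modifiers and outputs of the loop. In KO 5 rose and 9 fell with isoproterenol, against 48.6% of all genes called (23.8% higher, 24.8% lower). In WT 2 rose and 2 fell, against 16.6% of all genes (7.60% higher, 8.98% lower). With the WT libraries paired as above, 5 were higher (Ciart, Elovl3, Nfil3, Prkaa2 and Cipc) and 2 lower (Btrc and Tspan4). Under isoproterenol 4 were higher and 6 lower in KO than in WT, against 44.6% of all genes (21.6% higher, 23.1% lower). Under saline 0 were called (3 with an unadjusted p under 0.05, 0 with voom weights), against 0.0977% of all genes. The KO response differed from the WT response at 7 of the 31, all lower, against 24.7% of all genes (10.9% higher, 13.8% lower). Without KO isoproterenol replicate 1 the counts were 6 higher and 10 lower in KO. They were then 5 higher and 5 lower for KO against WT under isoproterenol. For the difference of responses they were then 2 higher and 6 lower, where the share over all genes is not given here. The median log2 fold change of the 31 was -0.17 in KO and 0.07 in WT. The counts are to be read against the shares over all genes given here and above, from which they are not set apart.

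The D-box partners of Dbp fell with it in KO. Hlf had 4.54, 13.5, 6.09 and 13.5 CPM in KO isoproterenol, against 61.9, 80.3, 70.4 and 97.0 CPM in KO saline. It had 37.5 to 85.3 CPM in WT isoproterenol and 65.3 to 109.8 CPM in WT saline, so KO isoproterenol lay below every other library. Its log2 fold change was -3.18 (SE 0.34, adjusted p = 5.60e-06) in KO and -0.43 (SE 0.34, adjusted p = 0.433) in WT, and the responses differed (log2 difference -2.75, SE 0.48, adjusted p = 0.00215). Tef had 59.6, 91.2, 98.1 and 203 CPM in KO isoproterenol, against 231, 291, 272 and 391 CPM in KO saline, a log2 fold change of -1.51 (SE 0.29, adjusted p = 7.12e-04). Its KO response lay below that in WT (log2 difference -1.42, SE 0.41, adjusted p = 0.0231). Nfil3, the D-box repressor, moved the other way: it had 27.2, 139, 77.6 and 107 CPM in KO isoproterenol, against 48.5, 19.5, 28.6 and 24.2 CPM in KO saline. It rose in KO (log2 fold change 1.396, SE 0.42, adjusted p = 0.0122), although replicate 1 lay inside the saline range. That call was lost with the 8 KO libraries alone (adjusted p = 0.0583). Nfil3 was also higher in KO than in WT under isoproterenol (log2 difference 1.54, SE 0.42, adjusted p = 0.00774).

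ROR receptors are the activators at the element that REV-ERB proteins repress. Rorb, at 0.309 to 2.19 CPM in KO isoproterenol and 2.24 to 8.24 CPM in KO saline, fell (log2 fold change -2.75, SE 0.57, adjusted p = 0.00120), on few reads. Rora, the more abundant of these genes, was not called in any comparison. It had 16.2 to 45.5 CPM in KO isoproterenol and 17.4 to 23.1 CPM in KO saline, which overlapped. The Rora mean was higher in KO isoproterenol, at 32.9 CPM against 20.4 CPM in KO saline. Npas2, which can take the place of CLOCK, had 2.35 to 6.99 CPM in KO isoproterenol, against 0.172 to 2.54 CPM in KO saline, and rose (log2 fold change 2.97, SE 0.73, adjusted p = 0.00384), with 1 to 30 reads in the KO saline libraries.

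Ciart encodes a repressor of the BMAL1 and CLOCK pair, and its promoter window held 3 E-boxes. Among the other wider genes searched, Tef held an E-box in both its windows. Hlf held a cAMP response element at bases -9 to -2. Nfil3 held the core given above, and Npas2 and Usp2 held no motif searched. Ciart had 3.78, 5.71, 2.74 and 3.53 CPM in KO isoproterenol, against 13.1, 12.3, 9.69 and 12.1 CPM in WT isoproterenol, without overlap. It had 3.36, 6.29, 6.35 and 14.5 CPM in KO saline, against 6.30, 5.46, 4.14 and 5.19 CPM in WT saline. It rose in WT (log2 fold change 1.17, SE 0.34, adjusted p = 0.0292), its KO change was -0.80 (SE 0.34, adjusted p = 0.0619), and the KO response lay below that in WT (log2 difference -1.97, SE 0.48, adjusted p = 0.0104). The WT call was lost in 6 of 16 fits that left out a library.

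Among the ubiquitin ligase genes of the clock, Btrc, whose product marks PER proteins for breakdown, fell in KO (-0.50, adjusted p = 0.00523) and in WT (-0.63, 0.00441). Its KO call was lost with library totals as scaling (-0.32, adjusted p = 0.125). Fbxl21, which acts on CRY proteins, fell in KO (-1.40, adjusted p = 0.00217), on few reads. It had 0.357 to 0.705 CPM in KO isoproterenol (36 reads over the group) and 1.12 to 1.52 CPM in KO saline (61 reads). Timeless and Nono, which encode PER-binding or CRY-binding proteins, rose in KO by 0.86 (adjusted p = 0.0119) and 0.44 (0.0193), the call of Nono being lost in 3 of 16 fits that left out a library, that without KO isoproterenol replicate 1 among them (0.29, adjusted p = 0.0570). Of the outputs, Nampt, the rate-limiting enzyme of NAD salvage, fell in KO (log2 fold change -1.26, SE 0.20, adjusted p = 1.77e-04), and Usp2, a deubiquitinase, fell (log2 fold change -1.71, SE 0.39, adjusted p = 0.00215). The responses of Nampt and Usp2 also differed between genotypes (log2 difference -1.52, adjusted p = 0.00309, and -1.97, adjusted p = 0.0188). Tspan4 fell in KO (-1.23, adjusted p = 1.16e-04) and in WT (-1.88, 3.03e-05), and Lonrf3 rose in KO (2.50, 0.00177). Pnpla2, which encodes a triglyceride lipase, fell in KO (-1.64, adjusted p = 0.0360), a call lost in 5 of 16 fits that left out a library. Without KO isoproterenol replicate 1 its change was -0.81 (adjusted p = 0.0385). With the 8 KO libraries alone the KO calls of Timeless (adjusted p = 0.0532), Nono (0.106) and Pnpla2 (0.146) were lost. Elovl3, a fatty acid elongase of brown fat, rose in WT (7.44, adjusted p = 0.00120), from 0.750 to 7.26 CPM in saline to 274 to 927 CPM in isoproterenol libraries. In KO it started higher, at 15.7 to 99.1 CPM in saline, and had 7.54 to 1683 CPM in isoproterenol libraries. Its mean there also rose, from 49.7 to 615 CPM, but was not called.

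Under isoproterenol the wider genes higher in KO than in WT were Nfil3, Lonrf3 (3.08, adjusted p = 4.91e-04), Tspan4 (0.77, 0.00426) and Fbxw11 (0.34, 0.0438), a relative of Btrc. Those lower in KO were Hlf (-2.98, adjusted p = 2.33e-05), Usp2 (-2.23, 4.05e-04), Ciart (-1.62, 0.00148), Tef (-1.59, 5.97e-04), Nampt (-1.27, 2.34e-04) and Fbxl21 (-0.88, 0.0345). The call of Fbxw11 was lost in 10 of 16 fits that left out a library and that of Fbxl21 in 5. Both were also lost with the 8 isoproterenol libraries alone (adjusted p = 0.116 and 0.111) and with a replicate block (0.0651 and 0.0557). That of Fbxl21 was lost too with library totals as scaling (0.113) and with log2(CPM + 1) (0.0562). Without KO isoproterenol replicate 1 the adjusted p was 0.0619 for Fbxw11 and 0.0942 for Fbxl21.

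**Figure D4:**
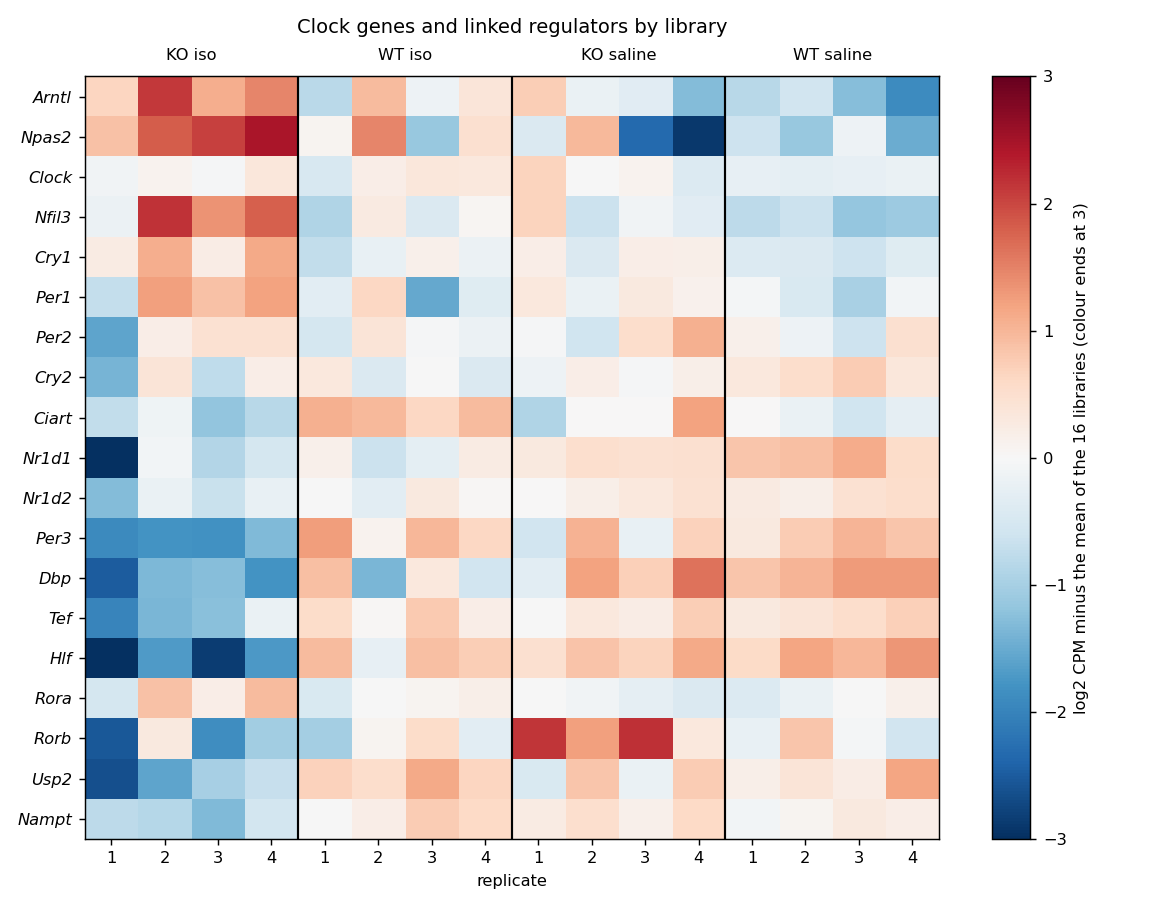
Log2 CPM of the 10 clock genes and of 9 genes of the wider clock list (rows) in the 16 libraries (columns, by group and replicate), as the difference from the mean of the 16 libraries; red is higher and blue lower, and the colour scale ends at 3. The KO isoproterenol columns are blue for Dbp, Per3, Hlf and Tef and red for Arntl, with replicate 1 palest for Arntl and Nfil3 and bluest for Nr1d1.

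Markers of other cell types moved with the KO isoproterenol group, beside the clock genes. Of the brown adipocyte markers 6 of 12 fell in KO, and their summed level was 3483 to 37696 CPM in KO isoproterenol and 30144 to 42138 CPM in WT isoproterenol, against 20815 to 21257 CPM in KO saline and 20592 to 23797 CPM in WT saline. These sums include Ucp1, the targeted gene. Its means were 816 CPM in KO isoproterenol, 14170 in WT isoproterenol, 818 in KO saline and 3076 in WT saline. The sums therefore differ between genotypes partly through the knockout itself. KO isoproterenol replicate 1, which was the lowest library of its group for 9 of the 10 clock genes, all but Cry1, also had the lowest brown adipocyte sum. All 10 macrophage markers rose in KO, with sums of 1072 to 8186 CPM in KO isoproterenol and 599.9 to 1087 CPM in WT isoproterenol, against 353 to 647 CPM in KO saline and 255 to 623 CPM in WT saline, and replicate 1 had the highest. Of 7 listed neutrophil markers 6 rose, with sums of 136 to 544 CPM in KO isoproterenol and 37.6 to 44.7 CPM in WT isoproterenol, against 7.87 to 12.7 CPM in KO saline and 10.4 to 15.4 CPM in WT saline. In KO 3 of 7 lymphocyte markers fell, 4 of 6 endothelial and 2 of 6 fibroblast markers rose, 2 of 4 white adipocyte markers rose and 2 fell, and 0 of 8 skeletal muscle markers were called. The skeletal muscle sums varied widely within every group. They were 6.52 to 557 CPM in KO isoproterenol and 5.22 to 2394 CPM in WT isoproterenol. In KO saline they were 5.51 to 630 CPM and in WT saline 5.51 to 7272 CPM. Among all genes 23.8% rose and 24.8% fell in KO, so the shares of the lymphocyte, endothelial, fibroblast and white adipocyte markers, of 4 to 7 genes each, are not set apart from that background here. No marker was at 0 reads in all 4 libraries of a group. The part of these cell types in the clock gene results was not tested.

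Genes that respond to hormones and stress were compared beside them, where 23.8% of all genes rose in KO and 24.8% fell. Of 10 glucocorticoid-responsive genes 5 rose in KO, led by Mt2 (2.82, adjusted p = 8.62e-04) and Fkbp5 (2.64, 4.18e-05), and 1 rose in WT, Sgk1 (1.02, 0.0458), a call lost in 9 of 16 such fits. Of 10 cAMP-responsive genes 2 rose in KO, Fos (3.10, adjusted p = 0.00306) and Junb (1.18, 0.0347, lost in 5 of 16 such fits, and at an adjusted p of 0.0621 without KO isoproterenol replicate 1), and 0 in WT. Of 8 heat-shock and cold-induced genes 5 rose in KO, led by Hspa1a (2.54, adjusted p = 0.00318) and Hspa1b (2.22, 0.00189), and 2 in WT. Median log2 fold changes in KO were 1.15, 0.34 and 0.76 for the glucocorticoid, cAMP and heat-shock lists. Their part in the clock gene results was not tested.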

How the data were processed

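The authors deposited log2 CPM per Ensembl gene and library; per the submitters' processing notes, STAR, limma and build mm39 were used. For the counter, its strand setting, tool versions and the gene filter, nothing is given in the sources used here. Taken as a power of 2, 100% of the values were whole reads plus 0.5 (within 1e-06), times a step per library, so a printed CPM holds this prior count. Symbols came from GENCODE M21 (15320 identifiers matched, 30 not). Groups came from the titles; 3 KO saline file headers carry another replicate number than the title. Precision is limited by reads per gene and 4 libraries a group.

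The test was limma 3.58.1 (R 4.3.3; trend, robust) on 4 group means of all 16 libraries, 12 residual degrees of freedom, Benjamini-Hochberg adjustment over 15350 genes, and a call at 0.05. It was tested on simulated data. Each gene named is a clock gene, a called gene of the wider list or 1 of the 2 largest called changes of another list. Others are the 6 most like Arntl and the 6 most like Dbp, and Rora, named beside Rorb though not called. Clock's rank and the values of Rora were added after they were seen. Members and lists were chosen with earlier results of these data known, and 1 gene of the wider list is not reported here. Alternatives were library totals as scaling, log2(CPM + 1), a mean log2 CPM of at least 1, only the 8 libraries compared, a replicate block, voom weights and leaving out each library. In WT, where the labels give no pairing, the deviations of all 4 same-numbered isoproterenol and saline libraries correlated (r 0.256 to 0.566). A fit of the 8 WT libraries with the replicate number as a block was therefore added after seeing the data. WT isoproterenol replicate 2 correlated more with WT saline replicate 1 (0.450) than with replicate 2 (0.416). WT isoproterenol replicate 3 did so with WT saline replicate 4 (0.367, against 0.337 with replicate 3). The other differently numbered WT pairs ran from -0.554 to 0.276. These correlations therefore do not show that the numbers are pairs. In KO 2 of 4 pairs exceeded 0.1. Prkaa2 and Cipc were named after that fit was seen.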

Additional observations from a re-analysis of the deposited data

Results flagged for a closer look

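Per2 in KO isoproterenol replicate 1 was 14.3 CPM, far below the other 3 libraries of its group, at 49.3 to 59.5 CPM. Cry1 in KO saline replicate 2 was 15.6 CPM, below the other 3 at 24.1 to 24.5 CPM. These were the 2 cases among 108 groups of 4 libraries checked, where chance marks about 1 group in 20.

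The isoproterenol response differed between genotypes, by the test of the difference itself, at Per3 (log2 difference -1.96, KO response minus WT response). In the wider clock list it differed at Rorb (-2.59), Tef (-1.42), Hlf (-2.75), Ciart (-1.97), Usp2 (-1.97), Nampt (-1.52) and Elovl3 (-5.02). The call of Elovl3 was lost in 14 of 16 fits that left out a library, that of Rorb in 9 and that of Tef in 1. Without KO isoproterenol replicate 1 the difference of Elovl3 was -3.45 (adjusted p = 0.0592).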

How the results depend on the processing

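For the calls in the 10 clock genes, 258 values over all alternatives kept direction and side of the threshold, 17 missed the threshold and 0 reversed. The counts of called genes below are only those that moved past 1.5 times, or to or from 0. Counts left out stayed within 1.5 times of the main fit. With only the 8 libraries compared, the clock genes called were 1 higher and 2 lower in WT and 1 higher in KO. For KO against WT under isoproterenol 1 was higher. Those of the wider list were 4 higher and 4 lower in WT and 2 higher in KO. In KO the lower calls of Per3, Nr1d2 and Dbp stayed, as did those of Per3 and Dbp for KO against WT under isoproterenol. The shares over all genes in that setting are not given here, so these counts are not set against a background. With library totals as scaling, 1 clock gene was lower in WT, and in the wider list 1 was higher in WT, 8 in KO, 11 for KO against WT under isoproterenol and 1 in the difference of responses. With a mean log2 CPM of at least 1, which tests 12440 genes and drops the wider genes under it, 3 of the wider list were higher in KO. Deviations of same-numbered libraries correlated over 0.1 in 9 of 24 pairs by title, among them all 4 between WT isoproterenol and WT saline, and in 13 of 24 by file header. Over all 16 libraries the replicate block by title moved no count past 1.5 times; by header number, added after seeing the data, 1 clock gene (Arntl, adjusted p = 0.0212) was called higher in WT, and Per1 passed for KO against WT under isoproterenol (1.04, adjusted p = 0.0451). With the replicate block within the 8 WT libraries, also added then, 1 clock gene was higher and 3 were lower in WT, and 5 of the wider list were higher. Leaving out each library in turn gave 0 to 1 clock genes higher and 0 to 2 lower in WT, 1 to 3 higher in KO and 1 to 3 higher for KO against WT under isoproterenol, and in the wider list 1 to 2 higher in WT, 0 to 3 higher and 4 to 7 lower in the difference of responses. The relation of Arntl with Dbp ran from -0.83 to -0.49. Only changes that were not called reversed. With library totals these were Per3 in WT (-0.0918), Clock in KO (0.16) and, for KO against WT under isoproterenol, Clock (0.24), Per2 (0.23) and Cry2 (2.93e-04); with voom weights it was Per1 in WT (0.00960). Leaving out libraries, ranges that crossed 0 were, in WT, Per1 (-0.34 to 0.38), Per2 (-0.25 to 0.11) and Per3 (-0.15 to 0.23); in KO, Clock (-0.18 to 0.17) and Per2 (-0.64 to 0.13); for KO against WT under saline, Per2 (-6.59e-04 to 0.56) and Dbp (-0.56 to 0.0895), and under isoproterenol, Clock (-0.21 to 0.0695), Per2 (-0.22 to 0.46) and Cry2 (-0.52 to 0.0809). For the difference of responses they were Per2 (-0.58 to 0.19), Cry2 (-0.0792 to 0.52) and Nr1d1 (-0.96 to 0.0516), and for the relation with Arntl Per2 (-0.24 to 0.34), Cry2 (-0.18 to 0.28), Nr1d1 (-0.0431 to 0.43) and Nr1d2 (-0.50 to 0.0839). The cause of these changes was not tested. Genes of a few reads, such as Npas2 and Rorb, are limited by depth, and counting error alone is wide there.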
